A study of Homo sapiens with 16 samples.

Results

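Growth factor receptor tyrosine kinases were followed in 2 human neuroblastoma cell lines, Kelly and LAN-1, that carry extra copies of the MYCN oncogene and were treated with GSK126, which blocks the histone methyltransferase EZH2. The rule takes genes by name, with earlier results of these data known when the names were chosen. It takes the rows of the count table for PDGFRA, PDGFRB, KDR, FLT1, KIT, EGFR, ERBB2, ERBB3, FGFR1 and FGFR2. All 10 were found among 25728 gene symbols. The 8 groups, each of 2 libraries, were Kelly with DMSO for 2 days, Kelly with DMSO for 5 days, Kelly with 2 uM GSK126 for 2 days, Kelly with 2 uM GSK126 for 5 days, and the same 4 conditions in LAN-1. DMSO is the solvent control. No other agent, transgene or edited allele is named for any group, and each line stands for 1 tumour, so a difference between the lines is a difference between these 2 cultures.

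These receptors span the cell membrane, bind a secreted ligand outside the cell, pair up and phosphorylate each other on tyrosine. Adaptor proteins then dock on the phosphorylated tails and pass the signal to RAS, the ERK kinases and PI3 kinase. PDGFRA and PDGFRB bind platelet-derived growth factors and mark mesenchymal and neural crest derived cells. KDR and FLT1 are receptors for vascular endothelial growth factor and are best known in blood vessels. KIT binds stem cell factor and is needed by melanoblasts, mast cells and blood stem cells. EGFR, ERBB2 and ERBB3 form pairs with each other, ERBB2 has no ligand of its own and ERBB3 has little kinase activity. FGFR1 and FGFR2 bind fibroblast growth factors together with heparan sulphate. EZH2 is the catalytic subunit of PRC2, which places the repressive mark H3K27me3, and many developmental genes carry that mark when they are silent.

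Library totals ran from 912095 to 1666190 counts, so a level of 1 CPM (the count scaled to the library total) rests on 1 or 2 reads. Levels below are in CPM, with library totals scaled by the TMM method, and a gene was called where edgeR's adjusted p over 11863 tested genes was under 0.05. Of the receptors, 7 passed the filter on low counts and were tested. FLT1, ERBB2 and ERBB3 did not and are given as counts. The sympathetic markers HAND2, GATA3 and MYCN were high in both lines, but TH and DBH, the enzymes of catecholamine synthesis, were near absent in LAN-1, with group means of at most 3.53 CPM for TH and 4.36 CPM for DBH. Nothing in the labels shows whether duplicates are separate cultures, so p-values measure only the spread between these libraries, which may be technical. In bulk RNA, more cells with a transcript and more transcript per cell cannot be told apart.

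PDGFRA, KIT and KDR, the 3 receptors called in Kelly at day 5, are neighbours on chromosome 4. On GRCh37 (GENCODE 44) PDGFRA lies at 4:55095447-55164412 on the plus strand, KIT at 4:55523434-55606949 on the plus strand and KDR at 4:55944648-55991762 on the minus strand. The gap is 359.0 kb from PDGFRA to KIT and 337.7 kb from KIT to KDR. Their promoter windows are shown because these are the receptors that were higher together. Each runs 250 bases before to 50 bases after the RefSeq start on GRCh38.p14, printed 5′ to 3′ on the gene's own strand with every CG dinucleotide, the site of DNA methylation and a feature of PRC2-bound promoters, in capitals. The windows are PDGFRA at chr4:54229043-54229342 (plus strand), KIT at chr4:54657707-54658006 (plus strand) and KDR at chr4:55125546-55125845 (minus strand).
PDGFRA: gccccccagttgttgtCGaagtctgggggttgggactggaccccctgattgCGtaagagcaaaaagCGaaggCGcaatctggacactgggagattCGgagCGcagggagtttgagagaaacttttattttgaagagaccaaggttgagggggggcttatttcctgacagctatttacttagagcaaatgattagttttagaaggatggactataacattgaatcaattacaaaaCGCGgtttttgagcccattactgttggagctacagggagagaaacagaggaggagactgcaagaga
KIT: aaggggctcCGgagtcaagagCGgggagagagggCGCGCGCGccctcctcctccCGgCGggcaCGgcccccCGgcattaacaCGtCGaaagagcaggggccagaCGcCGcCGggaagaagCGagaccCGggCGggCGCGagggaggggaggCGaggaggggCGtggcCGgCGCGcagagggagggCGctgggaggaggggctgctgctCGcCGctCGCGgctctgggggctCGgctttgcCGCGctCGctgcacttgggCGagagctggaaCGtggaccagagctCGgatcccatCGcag
KDR: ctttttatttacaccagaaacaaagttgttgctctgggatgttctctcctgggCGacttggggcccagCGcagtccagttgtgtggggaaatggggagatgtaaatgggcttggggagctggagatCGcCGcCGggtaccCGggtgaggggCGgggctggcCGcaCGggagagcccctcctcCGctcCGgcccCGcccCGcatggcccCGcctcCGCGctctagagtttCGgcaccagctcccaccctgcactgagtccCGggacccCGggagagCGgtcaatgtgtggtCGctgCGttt

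The 3 windows differ in CG content. KIT holds 38 CG dinucleotides, a number reached by 12.5% of the 15834 promoter windows of genes in the count table. KDR holds 22, close to the median of 21, and PDGFRA holds 8, a number reached by 73.9% of windows. Windows were found for 8 of the 10 receptors. FGFR2 was the richest of these with 52 (reached by 0.992%), and EGFR and FLT1 held 33 each, ERBB2 24 and PDGFRB 11. The E-box CACGTG, which reads the same on both strands and is the sequence bound by MYC family proteins, occurred in 8.68% of all windows and in none of the 8. A match or its absence describes these letters only.

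In DMSO both lines expressed FGFR1, EGFR, FGFR2 and PDGFRB, at different levels, and LAN-1 also expressed KIT and PDGFRA. Per kilobase of the canonical transcript, the scale on which genes can be compared, Kelly had 4 receptors at like levels over its 4 DMSO libraries: PDGFRB (10.6 ± 2.62 CPM per kb, SD, n = 4), EGFR (9.27 ± 3.34), FGFR1 (9.09 ± 1.52) and FGFR2 (8.40 ± 1.63). Their ranges over both days overlapped, but the order within a day was partly resolved. At day 2 EGFR (12.1 ± 0.164, n = 2) was above the others in both libraries. At day 5 PDGFRB (12.6 ± 0.0669, n = 2) was highest and EGFR (6.42 ± 1.01) lowest, again without overlap. The order of the rest was not resolved on either day. The other 6 were at 0.388 CPM per kb or less, with PDGFRA, ERBB2, KDR, ERBB3 and KIT at 14, 7, 9, 2 and 1 counts over the 4 libraries and FLT1 at 0.

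LAN-1 was led by FGFR1 (23.6 ± 0.849 CPM per kb, n = 4), whose lowest library, 22.5, was above the highest of EGFR, 20.4. EGFR (15.0 ± 4.57) was in turn above KIT (7.21 ± 1.74) in every library. KIT overlapped with FGFR2 (6.31 ± 0.720). PDGFRA (3.79 ± 0.502) and PDGFRB (3.53 ± 0.607) overlapped with each other below the lowest FGFR2 library. ERBB2 and ERBB3 had 4 and 3 counts over the 4 libraries, and KDR and FLT1 had none. A count of 0 allows up to 3 counts over the libraries read. A ratio set against that floor leaves out the counting error of the other count, and intervals here cover counting error only.

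**Figure D1:**
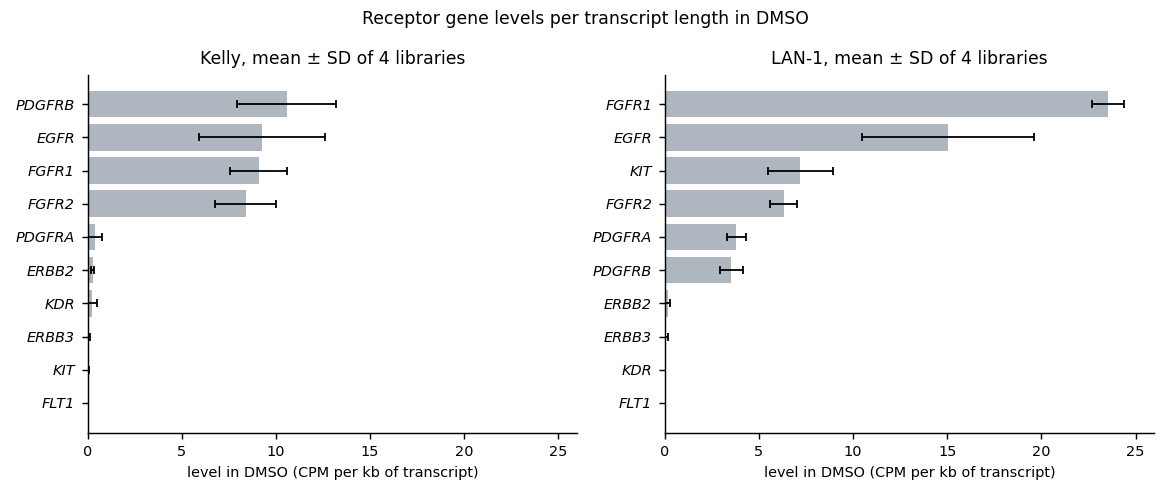
Levels of the 10 receptor genes in DMSO in CPM per kilobase of canonical transcript, Kelly left and LAN-1 right, each ordered from high to low. Bars are means and lines the SD of 4 libraries, with 4 receptors between 8.40 and 10.6 in Kelly and FGFR1 at 23.6 in LAN-1.

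All 7 tested receptors differed between the lines in DMSO, against a background of 67.7% of all tested genes, so the share is no mark of receptors. KIT had 207 counts in LAN-1 and 1 in Kelly over 4 libraries each, a ratio of 209 (95% counting interval 37.1 to 8291). PDGFRA (log2 fold change, LAN-1 over Kelly, 3.33 ± 0.32 SE, adjusted p = 2.60e-17), FGFR1 (1.36 ± 0.11, 1.71e-22) and EGFR (0.71 ± 0.10, 7.99e-11) were also higher in LAN-1. PDGFRB was higher in Kelly (-1.59 ± 0.16, 1.21e-16). KDR had 9 counts in Kelly and none in LAN-1, a ratio of 2.97 (Kelly over LAN-1) with the LAN-1 count set to 3. Its call (adjusted p = 0.00556) was lost without Kelly DMSO day 2 replicate 2 or day 5 replicate 2. These 2 libraries held the 9 counts. FGFR2 was slightly higher in Kelly (-0.40 ± 0.16, adjusted p = 0.0238), a call lost without any 1 of 5 libraries (up to 0.183 without Kelly DMSO day 5 replicate 2) and with DESeq2 (0.1).

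With GSK126, PDGFRA, the receptor for PDGF A chains, lay above DMSO without overlap in all 4 comparisons and passed the test in 3. In Kelly at day 5 its counts were 8 and 1 in DMSO and 35 and 32 with GSK126, or 5.95 and 0.604 against 28.5 and 24.3 CPM. The groups did not overlap. The log2 fold change was 3.09 ± 0.42 (n = 2 per group, edgeR adjusted p = 8.84e-09), and the call stood whichever library was left out (adjusted p up to 0.00126) and with DESeq2 (2.43e-05). The GSK126 level, 26.4 ± 2.99 CPM, was close to that of LAN-1 in DMSO at day 5, 25.1 ± 4.71 CPM. In Kelly at day 2 the counts were 1 and 4 in DMSO and 12 and 18 with GSK126, again without overlap (2.30 ± 0.60), but the adjusted p of 0.0776 missed the threshold. With the replicate number as a block it was 0.0491.

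In LAN-1, where PDGFRA was already present, it rose at day 2 from 34 and 37 counts in DMSO to 62 and 62 with GSK126, or from 23.3 ± 2.36 to 49.0 ± 1.84 CPM (SD, n = 2 per group, log2 fold change 1.07 ± 0.23, adjusted p = 0.0109). At day 5 it rose from 28.4 and 21.7 to 53.6 and 39.4 CPM (0.91 ± 0.24, adjusted p = 0.0127). The groups did not overlap on either day. These calls were less secure: the first was lost without any 1 of its 4 libraries (up to 0.4 without DMSO replicate 1) and with DESeq2 (1). The second was lost without DMSO replicate 1 (0.0577), DMSO replicate 2 (0.204) or GSK126 replicate 1 (0.262), and DESeq2 gave it no adjusted p. Averaged over both lines and both days the PDGFRA effect was 1.84 ± 0.20 (adjusted p = 1.07e-12), up to 6.49e-09 with any 1 library left out. In that average 3 of 7 receptors were called, PDGFRA, KIT and PDGFRB, against 6.52% of all tested genes. The KIT average came from Kelly, where the DMSO groups held 0 and 1 counts. In LAN-1 the KIT effects were 0.34 ± 0.22 at day 2 and -0.02 ± 0.22 at day 5. KDR, with 0 counts in both LAN-1 groups at day 2, had no usable estimate in the average.

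The day 5 effect on PDGFRA was smaller in LAN-1 than in Kelly by 2.18 on the log2 scale (-2.18 ± 0.52, adjusted p = 0.00616). This difference was lost without Kelly DMSO day 5 replicate 2 (0.433), the library with 1 count, or LAN-1 DMSO day 5 replicate 1 (0.0967). The group means behind it were 3.28 CPM in DMSO and 26.4 CPM with GSK126 in Kelly, and 25.1 and 46.5 CPM in LAN-1. The day 5 effect differed between the lines for 2 of 7 receptors, PDGFRA and KIT, against 1.85% of all tested genes. KDR, with 0 and 1 counts in the LAN-1 groups, had no usable estimate of that difference. Within Kelly, the PDGFRA effects of day 5 and day 2 were not told apart (0.79 ± 0.94, adjusted p = 0.936). Of the 7 tested receptors 0 were called for that difference by edgeR (background 0.379%) or DESeq2, and 1, EGFR, had an unadjusted p under 0.05.

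PDGFRB, the receptor for PDGF B chains, did not pass in any of the 4 single GSK126 comparisons. Its counts in Kelly at day 5 were 96 and 119 in DMSO and 96 and 125 with GSK126 (0.28 ± 0.16, adjusted p = 0.405), and in LAN-1 at day 2 they were 24 and 30 against 34 and 43 (0.78 ± 0.27, adjusted p = 0.432). Averaged over lines and days the effect was 0.35 ± 0.11 with an adjusted p of 0.0462. It missed the threshold when any 1 of 11 of the 16 libraries was dropped (up to 0.152, without LAN-1 DMSO day 2 replicate 1), without the filter on low counts (0.0653) and with DESeq2 (0.232).

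KIT, the stem cell factor receptor, appeared in Kelly from almost no reads. Its counts in Kelly with DMSO were 0 and 0 at day 2 and 0 and 1 at day 5. With GSK126 they were 2 and 3 at day 2 and 6 and 7 at day 5. At day 5 the ratio was 15.3 (95% counting interval 2.3 to 651, edgeR adjusted p = 0.0101). At day 2, with the DMSO count of 0 set to 3, the 5 GSK126 counts gave a ratio of 1.42. That ratio leaves out the counting error of the 5 counts, and a rise was not resolved (edgeR adjusted p = 0.501). The day 5 call was lost without DMSO replicate 1 (0.139), DMSO replicate 2 (0.0572) or GSK126 replicate 2 (0.0823), and with DESeq2 (0.235). The day 5 level with GSK126, 5.10 ± 0.301 CPM, stayed below every LAN-1 library. There KIT was at 28.0 to 49.3 CPM in DMSO and 39.7 to 42.2 CPM with GSK126, with no call at day 2 (0.34 ± 0.22, adjusted p = 0.847) or day 5 (-0.02 ± 0.22, 0.994). The difference of the day 5 effects between the lines passed (adjusted p = 0.0272) but was lost without any 1 of 5 libraries (up to 0.191 without Kelly DMSO day 5 replicate 1). The fitted size of that difference rests on the 1 count of the Kelly DMSO group.

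KDR, the main signalling receptor for VEGF, rose in Kelly at day 5 of GSK126. Its counts were 0 and 5 in DMSO and 18 and 10 with GSK126, or 0 and 3.02 against 14.7 and 7.59 CPM (2.66 ± 0.68, edgeR adjusted p = 0.00674). The groups did not overlap, but DESeq2 gave 0.475, and the call was lost without DMSO replicate 1 (0.208) or GSK126 replicate 1 (0.239). At day 2 the counts were 0 and 4 in DMSO and 3 and 2 with GSK126, with no change resolved (0.09 ± 1.07, adjusted p = 0.999). In both DMSO groups of Kelly all KDR reads lay in replicate 2. LAN-1 had 1 KDR read in 8 libraries. FLT1, a VEGF receptor that also acts as a decoy, had 1 read in each of the 2 Kelly GSK126 day 5 libraries and none in the other 14.

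In Kelly at day 5 these 3 receptors made 3 of 7 tested members called, all higher, where 4.90% of all tested genes were called and 3.30% were called higher. KDR passed the filter on low counts only through the Kelly GSK126 day 5 libraries, the group where it was highest. This share is therefore partly set by the filter. Without that filter the edgeR adjusted p of KDR was 0.0061. The median log2 change of the 7 was 0.43, beside 0.01 over all tested genes. At day 2 in Kelly 0 of 7 were called by edgeR or DESeq2 (background 0.185%), and 3 of 7 had an unadjusted p under 0.05: PDGFRA, KIT and EGFR. In LAN-1, 1 of 7 was called at day 2 (background 0.152%) and 2 of 7 at day 5 (background 3.66%). With 7 genes, each of these shares rests on 1 to 3 genes.

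**Figure D2:**
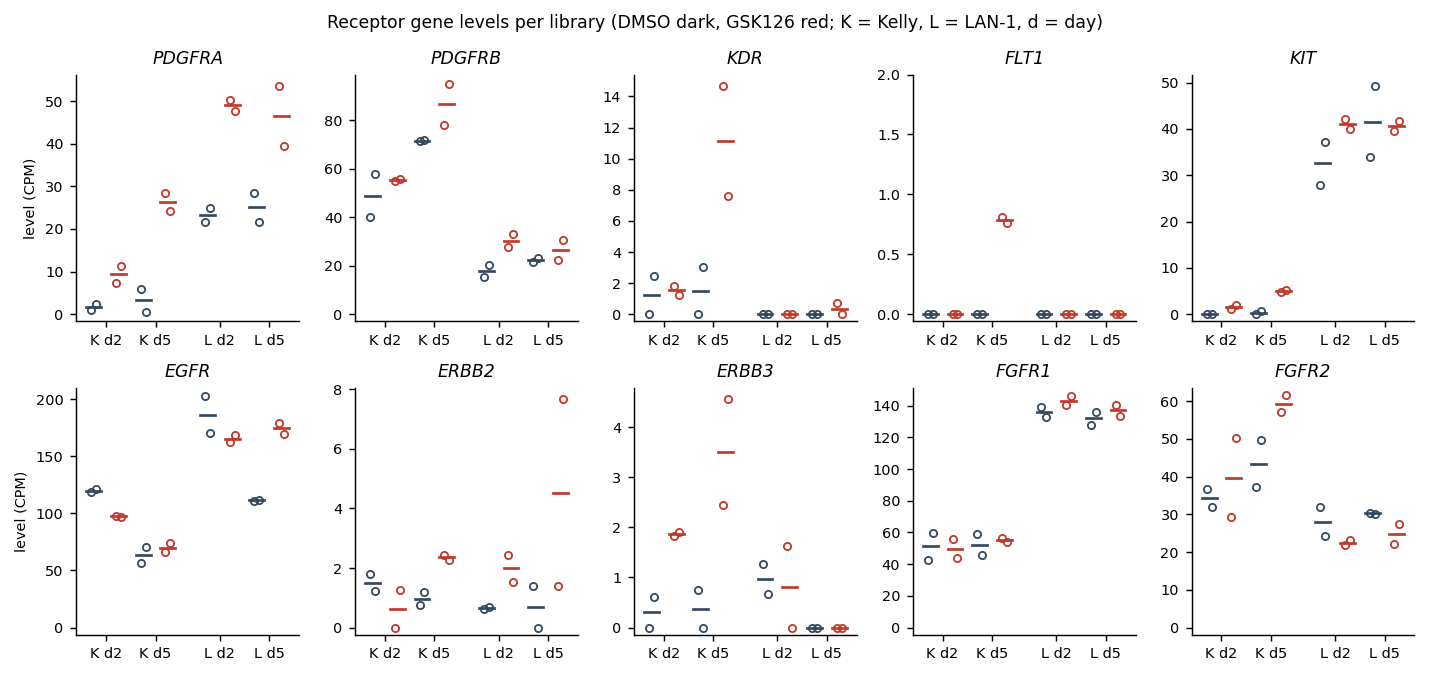
Level in CPM (vertical axis, scaled separately for each gene) of the 10 receptor genes in every library: circles are libraries and lines the mean of 2, DMSO dark and GSK126 red, for Kelly (K) and LAN-1 (L) at day 2 and day 5. PDGFRA with GSK126 lies above its DMSO control in all 4 pairs of groups, KIT and KDR rise from near 0 in Kelly, and EGFR is lower at day 5 than at day 2 in DMSO.

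None of the tested genes around PDGFRA, KIT and KDR passed the test. In the window from 1 Mb before PDGFRA to 1 Mb after KDR, the count table held 12 further protein-coding genes, of which 9 were tested. In Kelly at day 5 none was called by edgeR (background 4.90% of all tested genes) or DESeq2, and none had an unadjusted p under 0.05. Their log2 changes ran from -0.23 to 0.47 with a median of 0.05. None was called in LAN-1 at day 5 by either tool (edgeR background 3.66%, 2 had an unadjusted p under 0.05). With 9 genes, 0 calls is near the background in both lines. Among them, CHIC2, the nearest tested gene on the PDGFRA side, had a log2 change of 0.24 ± 0.34 in Kelly at day 5 (adjusted p = 0.803), and SRD5A3, the nearest on the KDR side, one of 0.47 ± 0.58 (0.77). For CLOCK, the circadian transcription factor gene, it was 0.33 ± 0.20 (0.43). The 3 receptors and their 9 tested neighbours were not compared by a test.

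**Figure D3:**
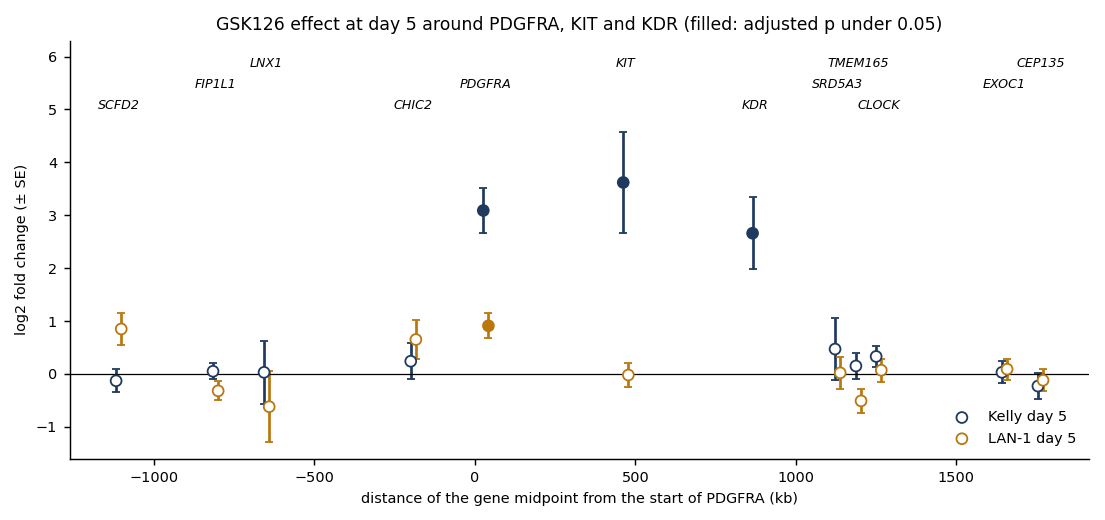
Log2 fold change of GSK126 over DMSO at day 5 (vertical axis, ± SE) for the tested genes around PDGFRA, KIT and KDR, by distance of the gene midpoint from the PDGFRA start in kb (horizontal axis), in Kelly (blue) and LAN-1 (orange). Filled points had an edgeR adjusted p under 0.05; in Kelly PDGFRA, KIT and KDR lie between 2.66 and 3.62 and the other genes between -0.23 and 0.47 (KDR in LAN-1, with 1 read, is not drawn).

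EGFR, the receptor for epidermal growth factor, fell with time in culture in both lines. In Kelly with DMSO it went from 119 and 121 CPM at day 2 to 56.5 and 70.7 CPM at day 5 (-0.90 ± 0.15, edgeR adjusted p = 2.03e-05). In LAN-1 with DMSO it went from 202.5 and 170.1 CPM to 110.8 and 112.0 CPM (-0.74 ± 0.12, adjusted p = 2.09e-05). The days did not overlap in either line. EGFR was the only member called in each of these comparisons, in which 0.430% and 0.438% of all tested genes were called, and both calls stood whichever library was left out (up to 0.0353 and 0.0433).

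With GSK126, EGFR passed the test in LAN-1 at day 5 only. In Kelly with GSK126, EGFR was at 97.2 ± 1.10 CPM at day 2 and 69.8 ± 5.41 CPM at day 5, with no call against DMSO at day 2 (-0.30 ± 0.13, adjusted p = 0.552) or day 5 (0.12 ± 0.16, 0.785). In LAN-1 with GSK126 it was at 162.2 and 168.4 CPM at day 2 and at 178.8 and 169.8 CPM at day 5. At day 5 this was above DMSO (0.65 ± 0.13, adjusted p = 3.69e-04), a call that stood whichever library was left out (up to 0.0274) and with DESeq2 (0.00538). At day 2 it was not (-0.17 ± 0.12, adjusted p = 0.861). The effect at day 5 exceeded that at day 2 by 0.83 ± 0.17 (adjusted p = 0.00398, background 0.539%), but not without LAN-1 DMSO day 2 replicate 1 (0.104). The day 5 effects of the 2 lines differed by 0.53 ± 0.21, which did not pass (adjusted p = 0.216). The LAN-1 DMSO day 5 group enters both the fall with time and the day 5 effect, so these 2 results share samples.

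ERBB2 and ERBB3, which pair with EGFR, had too few reads to test. ERBB2 had 0 to 3 counts in every library but one, LAN-1 GSK126 day 5 replicate 2, which had 7. Its ratio in LAN-1 at day 5 was 5.06 (95% counting interval 1.05 to 48.1, from 2 and 9 counts), and the other library of that GSK126 group had 2 counts. ERBB3, known for its role in Schwann cell development, went from 1 to 6 counts in Kelly at day 2 (ratio 5.12, 0.621 to 235) and from 1 to 9 at day 5 (10.6, 1.47 to 465). Every Kelly GSK126 library had 3 to 6 ERBB3 counts and every Kelly DMSO library 0 or 1. In LAN-1 it had 0 to 2.

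FGFR1 and FGFR2 passed the test in none of the 4 GSK126 comparisons. FGFR1 was at 42.9 to 59.6 CPM in all 8 Kelly libraries and at 128.1 to 146.1 CPM in all 8 LAN-1 libraries. Its GSK126 effects ran from -0.07 ± 0.18 to 0.09 ± 0.18 with adjusted p from 0.879 to 0.979. At day 5 the 95% interval, from the SE and 8 residual degrees of freedom, was -0.34 to 0.51 in Kelly and -0.25 to 0.37 in LAN-1. FGFR2 in Kelly at day 5 was at 37.2 and 49.6 CPM in DMSO and 57.1 and 61.5 CPM with GSK126, groups that did not overlap, but the change of 0.43 ± 0.19 did not pass (adjusted p = 0.225). In LAN-1 it was at 30.5 and 30.1 against 22.3 and 27.4 CPM (-0.32 ± 0.27, adjusted p = 0.61).

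**Figure D4:**
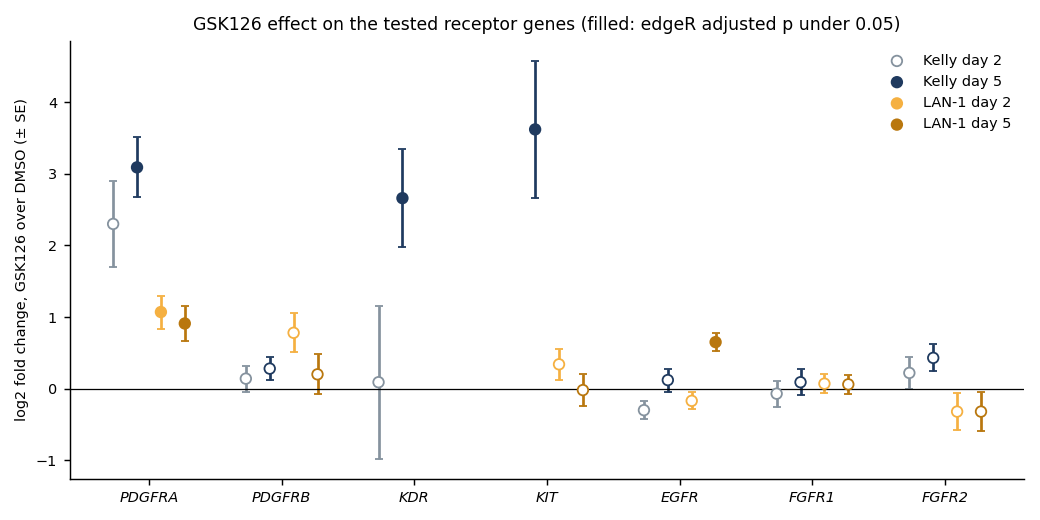
Log2 fold change of GSK126 over DMSO (vertical axis, ± SE) for the 7 tested receptor genes in the 4 comparisons. Filled points had an edgeR adjusted p under 0.05; PDGFRA lies between 0.91 and 3.09 and FGFR1 between -0.07 and 0.09 (KIT in Kelly at day 2 and KDR in LAN-1, with 0 counts in the control group, are not drawn).

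No tested ligand of these receptors passed the test for the GSK126 effect at day 5 within a line. Of the PDGF, VEGF and KIT ligands 7 of 10 were tested, of the EGF family 3 of 11 and of the FGF family 5 of 22. None was called by edgeR or DESeq2 in Kelly or LAN-1 at day 5, where 1, 0 and 1 in Kelly and 1, 0 and 1 in LAN-1 had an unadjusted p under 0.05. Of all tested genes edgeR called 4.90% in Kelly and 3.66% in LAN-1 at day 5. In lists this small, 0 calls is near that background, here and for the other receptors below. Between the lines the day 5 effect was called as different for 1 ligand, against 1.85% of all tested genes. This was FGF13, an FGF relative that acts inside the cell (LAN-1 minus Kelly -1.97 ± 0.53, edgeR adjusted p = 0.0235). Its counts were 11 and 8 in DMSO and 18 and 20 with GSK126 in Kelly (1.22 ± 0.40, adjusted p = 0.0506), and 25 and 24 against 18 and 8 in LAN-1 (-0.74 ± 0.35, 0.257). Of the other receptors of the same families, FLT4, ERBB4, FGFR3, FGFR4 and FGFRL1 were tested and none was called at day 5 by either tool (FLT4 and FGFR4 in Kelly and FGFRL1 in LAN-1 had an unadjusted p under 0.05). CSF1R and FLT3 were too low to test.

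Some co-receptors rose in each line at day 5. In LAN-1, NRP1, which binds VEGF beside KDR and also binds semaphorins, rose from 15.9 and 12.5 CPM in DMSO to 38.3 and 53.7 CPM with GSK126 (1.62 ± 0.26, edgeR adjusted p = 5.83e-06). The cell surface proteoglycan gene SDC3 rose as well (0.76 ± 0.19, 0.00588), a call lost when either of 2 libraries was dropped (adjusted p up to 0.481, DMSO day 5 replicate 1). In Kelly, NRP1 was at 129.7 ± 13.1 CPM in DMSO and 131.4 ± 4.34 CPM with GSK126 (0.01 ± 0.13, adjusted p = 0.988). The difference of the NRP1 effects between the lines was 1.61 ± 0.30 (edgeR adjusted p = 1.24e-04). Kelly had higher levels of the syndecan genes SDC2 (0.68 ± 0.12, 5.62e-06) and SDC4 (1.07 ± 0.30, 0.0162) with GSK126. The SDC4 call was lost without any 1 of 3 libraries (up to 0.346, DMSO day 5 replicate 2) and with DESeq2 (0.218). In LAN-1 at day 5 the effects were -0.05 ± 0.20 for SDC2 and 0.26 ± 0.26 for SDC4. Neither differed between the lines by the edgeR test (adjusted p = 0.0725 and 0.37). Averaged over lines and days, SDC2 (0.27 ± 0.08, 0.0176) and SDC4 (0.56 ± 0.14, 0.00568) were both called. Of 9 tested co-receptors 3 were higher and 0 lower in Kelly (median 0.27, all genes 0.01), and 2 higher and 0 lower in LAN-1 (median 0.19, all genes 0.00), where 4.90% and 3.66% of all tested genes were called. DESeq2 called 1 of the 3 in Kelly and both in LAN-1.

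Of 34 adaptor and relay genes, 1 was higher and 2 lower in Kelly at day 5, and 2 were higher and 2 lower in LAN-1, with a median of -0.01 in each and a background of 4.90% and 3.66% of all tested genes. DESeq2 called 2 of the 3 in Kelly and, in LAN-1, 1 of the 4, with no adjusted p for 1 other, SHC3. PIK3R1, a regulatory subunit of PI3 kinase, was above DMSO in both, from 92.2 and 71.9 to 144.3 and 178.5 CPM in Kelly (0.99 ± 0.14, adjusted p = 2.55e-08) and from 49.2 and 62.7 to 94.6 and 80.0 CPM in LAN-1 (0.68 ± 0.17, 0.0103). The LAN-1 value missed the threshold when either of 2 libraries was dropped (up to 0.326, DMSO day 5 replicate 1) and with DESeq2 (0.056). In LAN-1 with DMSO, PIK3R1 fell from 87.0 ± 8.71 CPM at day 2 to 55.9 ± 9.55 CPM at day 5 (-0.65 ± 0.17, edgeR adjusted p = 0.0423), and with GSK126 at day 5 it was at 87.3 ± 10.3 CPM, so its day 5 effect shares that DMSO group. The neuronal adaptor gene SHC3 rose in LAN-1 from 9.00 and 10.9 to 32.7 and 38.4 CPM (1.82 ± 0.30, 1.02e-05). In Kelly its effect was 0.18 ± 0.20 (0.727), and the lines differed (LAN-1 minus Kelly 1.64 ± 0.37, 0.00337). The docking protein gene GAB2 fell in Kelly (-0.63 ± 0.13, 4.71e-04). In LAN-1 the GAB2 effect was -0.25 ± 0.12 (0.282), with no difference called between the lines (0.38 ± 0.18, 0.342). Averaged over lines and days it was -0.39 ± 0.06 (2.38e-06). NRAS fell in LAN-1 (-0.49 ± 0.11, 0.00151), a call lost without GSK126 day 5 replicate 2. In Kelly the NRAS effect was -0.14 ± 0.10 (0.536), with no difference called between the lines (-0.35 ± 0.15, 0.257). Averaged over lines and days it was -0.20 ± 0.05 (0.00608). Of 15 genes that turn receptors down, 1 was called in Kelly, the receptor phosphatase gene PTPRJ (1.66 ± 0.52, 0.0404), lost without any 1 of 6 libraries (up to 0.475, DMSO day 5 replicate 2) and with DESeq2 (0.544). PTPRJ passed the filter on low counts only with the Kelly GSK126 day 5 libraries, where it was highest. None of the 15 was called in LAN-1 by either tool (4 had an unadjusted p under 0.05).

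Among 14 tested feedback genes and targets of ERK, 4 were higher and 0 lower in Kelly at day 5 (median 0.33, all genes 0.01), where 3.30% of all tested genes were called higher. DESeq2 called 2 of the 4, PHLDA1 and SPRY4. PHLDA1 rose from 8.92 and 6.65 to 38.3 and 26.6 CPM (2.06 ± 0.31, adjusted p = 3.24e-07), and SPRY4, an inhibitor of receptor kinase signalling, from 16.4 and 13.9 to 44.8 and 37.2 CPM (1.44 ± 0.26, 2.52e-05). The transcription factor gene ETV1 rose (0.77 ± 0.18, 0.00198), a call lost when either of 2 libraries was dropped (adjusted p up to 0.161, GSK126 day 5 replicate 2) and with DESeq2 (0.199). In LAN-1, 2 were higher and 0 lower (median 0.61, or 0.48 with genes at 0 in a group set to their bound, all genes 0.00), against 3.66% of all tested genes called. DESeq2 called neither: 1 missed its threshold and DUSP4 had no adjusted p. PHLDA1 showed no change in LAN-1, at 31.5 CPM in DMSO and 31.1 CPM with GSK126 (0.00 ± 0.24). Its day 5 effect differed between the lines (LAN-1 minus Kelly -2.06 ± 0.40, edgeR adjusted p = 4.25e-04). The phosphatase gene DUSP4 rose in LAN-1 from 25.6 and 25.9 to 46.6 and 58.1 CPM (0.99 ± 0.23, 0.00278), a call lost when either of 2 libraries was dropped. No difference between the lines was called at day 5 for SPRY4, ETV1 or DUSP4 (edgeR adjusted p = 0.788, 0.969 and 0.333). Whether these genes moved because of the receptors was not tested.

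Markers of the cells in which these receptors are best known were low, with exceptions. Beside KDR, the summed level of 12 endothelial markers in Kelly at day 5 was 32.0 and 25.4 CPM in DMSO and 35.9 and 28.1 CPM with GSK126. In DMSO most of that sum was EGFL7, at 26.8 and 19.3 CPM. With GSK126 EGFL7 was lower, at 17.9 and 14.4 CPM, which was not called. The junction markers CDH5 and ESAM and the markers EMCN and ROBO4 had no read in those 4 libraries, and ENG was called higher (1.71 ± 0.52, adjusted p = 0.0346, lost without any 1 of 4 libraries, up to 0.257, and with DESeq2, 0.475). ENG passed the filter on low counts only through the Kelly GSK126 day 5 libraries, where it was highest. Beside KIT, 7 haematopoietic and mast cell markers in Kelly at day 5 summed to 2.42 to 2.97 CPM in DMSO and 2.28 to 2.45 CPM with GSK126. PTPRC, TPSAB1, TPSB2 and CPA3 were at 0. Beside ERBB3, 10 Schwann cell and melanocyte markers summed to 26.8 and 25.4 CPM in DMSO and 35.9 and 35.7 CPM with GSK126, with S100B, FOXD3, TYR and DCT at 0. The 11 fibroblast and pericyte markers, beside PDGFRA, summed to 11490 and 10550 CPM in DMSO and to 7503 and 8425 CPM with GSK126 in Kelly. Nearly all of it was RGS5, at 10910 CPM in DMSO, which fell (-0.49 ± 0.08, 6.85e-07). The collagen gene COL1A1 from the same list went the other way in Kelly (2.29 ± 0.19, 3.89e-19) and went from 0 and 0 to 4 and 5 counts in LAN-1 (adjusted p = 0.0168, lost without any 1 of 3 libraries, up to 0.196, and with no adjusted p from DESeq2), while COL1A2 and FAP had no read in Kelly at day 5. Of 11 sympathetic markers, 6 were lower in Kelly at day 5 and 1 higher, with DBH from 819.8 to 329.7 CPM (-1.32 ± 0.09, 2.53e-23) and TH from 274.2 to 132.6 CPM (-1.04 ± 0.12, 8.02e-12). In LAN-1, 2 were higher and 0 lower. Of all tested genes, 4.90% were called in Kelly and 3.66% in LAN-1 at day 5. The 7 epithelial markers summed to at most 5.08 CPM in any library, with CDH1, KRT5 and KRT14 at 0. Over the LAN-1 libraries, endothelial markers summed to 1.35 to 5.09 CPM and haematopoietic and mast cell markers to 0 to 8.765 CPM. Schwann cell and melanocyte markers summed there to 21.6 to 43.1 CPM. Mean PMEL in LAN-1 was 8.83 CPM in DMSO and 21.05 CPM with GSK126 at day 2, and 15.27 and 27.5 CPM at day 5. It was called on neither day, but was called higher by edgeR in the average over lines and days. MITF went the other way in LAN-1 at day 5, from 15.48 to 8.16 CPM, and was not called. Fibroblast and pericyte markers summed to 168.1 to 231.2 CPM in LAN-1, with CSPG4 at group means of 104.8 to 126.2 CPM. The part of the sympathetic, endothelial, Schwann cell and pericyte markers in the receptor changes was not tested.

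Over the 16 libraries, with the mean of each line taken off, the tested genes whose levels most resembled each called receptor were named by Pearson's correlation of log2(CPM + 1). For PDGFRA they were COL2A1 (r = 0.92), PPP1R26 (0.91) and PGRMC1 (0.91). For KIT they were KIAA1804, INSR and TUBB4A (0.95 each), and for KDR AIF1L (0.92), DUSP10 (0.91) and CELSR1 (0.91). For EGFR they were ID3 (0.85), RCC1 (0.83) and TBX3 (0.81). COL2A1, a cartilage collagen gene, had a GSK126 effect of 3.38 in Kelly and 0.64 in LAN-1 at day 5 on the log2 scale. INSR encodes the insulin receptor, itself a receptor tyrosine kinase, and its day 5 effect was 7.65 in Kelly and 0.30 in LAN-1. The COL2A1 and INSR effects are fitted values given without SE or DMSO level, so their sizes are not resolved here. KDR had 1 read in all LAN-1 libraries together, so its correlations rest almost only on Kelly. The points share libraries, treatment groups and depth, and these correlations are descriptions across libraries with no test.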

How the data were processed

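RNA-seq was done on 16 libraries of the Kelly and LAN-1 lines in 8 groups of 2. The deposited table holds whole-number read counts per gene symbol. The tools named per the submitters' processing notes are TopHat2, featureCounts and FastQC, and the build is GRCh37 (hg19). Their settings, annotation and strand mode are not given in the sources used here, so overlapping genes could share reads. Symbols turned into dates (28) stayed unnamed. The 10 receptors and the gene lists were chosen with earlier results of these data known.

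Genes were filtered with filterByExpr (minimum count 10), which left 11863, scaled by TMM and fitted with edgeR 4.0.16 (R 4.3.3, quasi-likelihood test, all 8 groups in 1 model, no covariate, 8 residual degrees of freedom), with Benjamini-Hochberg adjustment. Replicate numbers gave no sign of pairing DMSO with GSK126 within a line and day: the correlation of deviations between same-numbered libraries ran from -0.14 to 0.0873. A weak shared effect could be missed this way, and pairing across days was not checked. Alternatives were DESeq2 1.42.0, its size factors, no filter on low counts, the replicate block and leaving out each library. Named are every receptor, the 3 tested genes (mean of at least 10 CPM) most like each called receptor, up to 4 genes per pathway list by smallest adjusted p at day 5, and up to 3 marker genes per list by level. COL1A1, TH, DBH, the other marker and receptor genes and the chromosome 4 neighbours given by name were chosen after their values were seen. Ratios of low counts have exact 95% intervals. A count of 0 was set to a floor of 3 counts over the libraries compared, and that ratio leaves out the counting error of the other side. The lists were other receptors, ligands, co-receptors, adaptors, down-regulation, ERK feedback and 6 sets of cell type markers. Promoter windows came from RefSeq on GRCh38.p14 and gene positions from GENCODE 44 on GRCh37.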

Additional observations from a re-analysis of the deposited data

Results flagged for a closer look

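The day 5 effect of GSK126 differed between the lines for PDGFRA, by -2.18 ± 0.52 on the log2 scale (LAN-1 minus Kelly, edgeR adjusted p = 0.00616), with GSK126 above DMSO in both lines and no overlap of groups. For KIT it differed by a fitted -3.64 (adjusted p = 0.0272), a size that depends on the single count in the Kelly DMSO group. For EGFR in LAN-1 the effect was larger at day 5 than at day 2 by 0.83 ± 0.17 (adjusted p = 0.00398), with both GSK126 libraries above both DMSO libraries at day 5 and below both at day 2. These 3 differences were tested as interaction terms, and each was lost without at least 1 library.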

How the results depend on the processing

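No receptor effect changed sign in any alternative where it was called. DESeq2 called fewer genes: 3 for Kelly day 2, 163 for Kelly day 5, 2 for LAN-1 day 2, 154 for LAN-1 day 5, 289 averaged, 73 for the difference between lines, 15 and 28 for the day differences in Kelly and LAN-1, and 15 and 22 for culture time. edgeR had called 22, 581, 18, 434, 773, 219, 45, 64, 51 and 52. Among receptors the DESeq2 calls were 1 for Kelly day 5, 0 for LAN-1 day 2, 1 for LAN-1 day 5 and 0 for the difference between lines, where it gave PDGFRA and KIT no adjusted p, as for PDGFRA in LAN-1 at day 5. With the replicate block 1 receptor, PDGFRA, was called in Kelly at day 2, and the block changed no other receptor call. The cause of these differences was not tested.

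With 1 library left out, the genes called ran from 2 to 25 for Kelly day 2, 239 to 720 for Kelly day 5, 3 to 31 for LAN-1 day 2, 139 to 734 for LAN-1 day 5, 578 to 959 averaged, 114 to 479 between lines, 22 to 55 and 24 to 224 for the day differences, 10 to 83 and 21 to 67 for culture time, and 7562 to 8337 for the lines in DMSO. Receptors called ran from 1 to 3 for Kelly day 5, 0 to 1 for LAN-1 day 2, 1 to 2 for LAN-1 day 5, 2 to 3 averaged, 0 to 2 between lines, 0 to 1 for the LAN-1 day difference and 5 to 7 for the lines in DMSO. A lone library left in a group was assumed to vary like the other groups. With totals of 912095 to 1666190 counts, FLT1, ERBB2 and ERBB3 had too few reads to be tested.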
